A study of Mus musculus with 4 samples.

Results

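The glutamine and neutral amino acid transporters described here are 10 genes: Slc1a5, Slc38a1, Slc38a2, Slc38a3, Slc38a4, Slc38a5, Slc7a5, Slc3a2, Slc7a6 and Slc7a8. They were chosen by gene symbol, as families of plasma membrane carriers that move glutamine or exchange it. The rule uses no measured value, although earlier results of these data were known when the list was drawn up. All 10 were found among the 31054 features counted, and all 10 had UMIs in every library. A UMI (unique molecular identifier) is a tag that lets each captured RNA molecule be counted once.

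Single-cell RNA was read from lungs of male C57BL/6 mice that were 19 months old when treatment began. For 1 month the mice received either BPTES, a compound that inhibits the glutaminase GLS1, or its vehicle DMSO. Each of these groups had 2 libraries. Lungs were dissociated with Liberase, cells were stained for the leukocyte surface protein CD45 and sorted, and 20000 CD45-negative cells were mixed with 9000 CD45-positive cells of the same tissue for each library. Shares of cells therefore follow this mixture and not the tissue. The labels do not say whether the libraries of a group came from separate mice, so p-values here measure only the spread between these libraries.

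Glutamine enters cells through several carriers that differ in what drives them. Members of the Slc38 family (SNATs) carry neutral amino acids together with sodium, and among them Slc38a1, Slc38a2 and Slc38a4 are system A carriers while Slc38a3 and Slc38a5 are system N carriers that can also run outward. Slc1a5 (ASCT2) is a sodium-dependent exchanger of small neutral amino acids. Slc7a5 (LAT1), Slc7a8 (LAT2) and Slc7a6 (y+LAT2) are light chains that work as exchangers only when paired with the heavy chain Slc3a2 (CD98hc), and glutamine brought in by other carriers can leave through them in exchange for leucine and other essential amino acids. Glutaminase, the target of BPTES, turns glutamine into glutamate inside the mitochondrion.

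The libraries held between 260346570 and 342107092 UMIs. After filters on depth, mitochondrial RNA and doublets, 63895 of 74057 cell barcodes were kept, with medians of 13929.5 to 15751.5 UMIs per cell. Any 2 libraries shared between 75 and 121 barcode sequences, at most 0.6803% of the smaller library. Cells were clustered on other genes than the 10 transporters, and 33 of 39 clusters took the name of a cell class from marker genes, written with the ending "-like" because the names rest on RNA alone. Another 6 clusters, with 7281 cells (11.4%), stayed unnamed. Levels are given for the 21 classes that reached 20 cells in each library. Tests of treatment were run in the 19 classes that reached 50 cells in each library. Clusters that held Ptprc, the gene of CD45, made up between 27.995% and 30.3% of the cells of a library, against the 31.0% mixed in.

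Of the 10 genes, Slc38a1, Slc38a2 and Slc38a4 lie next to one another on the minus strand of mouse chromosome 15. In the mm10 annotation (GENCODE M21), the protein-coding gene Slc38a1 (ENSMUSG00000023169) spans chr15:96571418-96642913, Slc38a2 (ENSMUSG00000022462) spans chr15:96687392-96699730 and Slc38a4 (ENSMUSG00000022464) spans chr15:96994820-97055956. The gaps between these spans are 44478 and 295089 bases. Slc38a5 (ENSMUSG00000031170) is on the plus strand at chrX:8271133-8280179. RefSeq promoter sequence for GRCm38.p6 matched 6 of the 10 genes (Slc38a2, Slc38a4, Slc38a5, Slc3a2, Slc7a6 and Slc7a8), with 9 start sites in all. The 250 bases before the start site are shown for 3 Slc38 genes because their expression differs most in breadth, from every cell class to a few: Slc38a2 from chr15:96699729-96699978, Slc38a4 from chr15:97055957-97056206 and Slc38a5 from chrX:8271131-8271380. The RefSeq start site of Slc38a5 lies downstream of the start in the GENCODE annotation, so nearly all of that window is inside the gene span given above. The sequences run 5′ to 3′ on the strand of the gene, and capitals mark CpG dinucleotides.
Slc38a2: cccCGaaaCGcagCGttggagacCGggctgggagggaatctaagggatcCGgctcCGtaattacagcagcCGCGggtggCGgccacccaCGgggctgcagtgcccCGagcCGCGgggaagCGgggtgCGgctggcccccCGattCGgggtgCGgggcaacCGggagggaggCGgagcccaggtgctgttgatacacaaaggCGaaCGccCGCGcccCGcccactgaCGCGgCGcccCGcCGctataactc
Slc38a4: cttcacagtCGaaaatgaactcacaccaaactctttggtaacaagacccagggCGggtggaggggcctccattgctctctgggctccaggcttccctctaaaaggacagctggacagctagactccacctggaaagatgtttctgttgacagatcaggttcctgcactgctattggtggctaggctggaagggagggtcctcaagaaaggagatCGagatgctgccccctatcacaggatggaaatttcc
Slc38a5: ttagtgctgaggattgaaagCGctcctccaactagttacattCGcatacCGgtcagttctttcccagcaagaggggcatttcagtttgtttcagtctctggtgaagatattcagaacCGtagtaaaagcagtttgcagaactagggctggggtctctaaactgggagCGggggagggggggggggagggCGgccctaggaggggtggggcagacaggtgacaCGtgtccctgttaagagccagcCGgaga
The Slc38a2 window held 30 CpG dinucleotides, a number that 5.94% of all 32851 mouse promoter windows of this length reached or passed. The Slc38a5 window held 8 and the Slc38a4 window 3, and the other start sites of Slc38a4 held 5 each, against a median of 6 over all windows. Of the other matched genes, Slc7a6 held 30 and 38 at its start sites, Slc7a8 held 14 and Slc3a2 held 11. The letters TGATGNAA, the core of the element that ATF4 binds, were found on neither strand of any of the 9 windows, while 3.45% of all windows hold them. The GC box GGGCGG was found on either strand in 1 copy in all 3 windows shown, and 32.7% of all windows hold it. These are descriptions of letters in a window and not of binding.

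**Figure D1:**
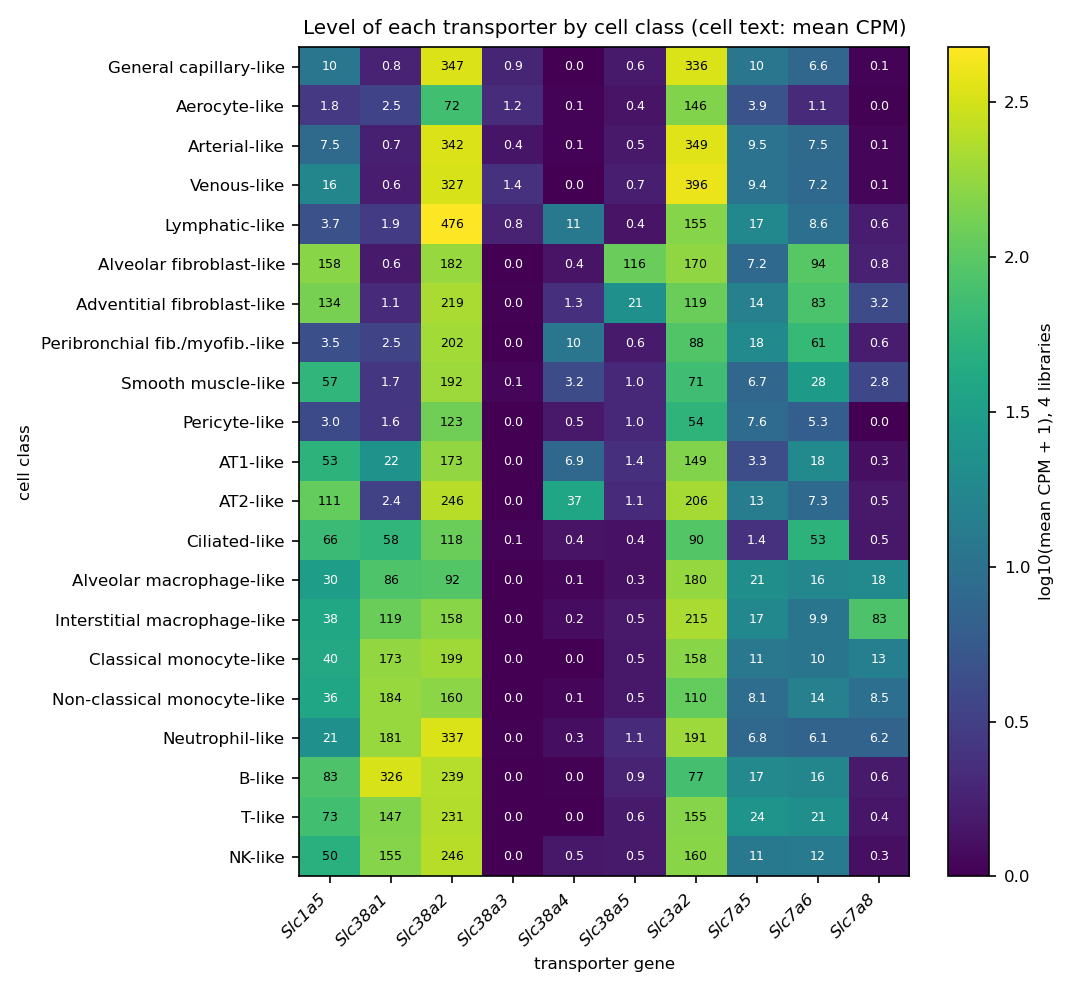
Mean level of each transporter (columns) in each of 21 cell classes (rows), in CPM (counts per 1000000 UMIs, scaled by TMM factors over all sums) over 4 libraries. Colour is log10 of the mean CPM plus 1 and the printed number is the mean CPM. Slc38a2 and Slc3a2 are above 50 CPM in every row, Slc38a1 is bright in the immune rows, Slc38a5 in the alveolar and adventitial fibroblast rows and Slc38a4 in the AT2 row.

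Levels are UMIs of a gene summed over the cells of a class in a library, per 1000000 UMIs of that sum (counts per 1000000 UMIs, CPM), scaled by TMM factors over all sums, and given as mean ± SD over the 4 libraries of both groups. The kit reads RNA from the 3′ end, and values were not divided by gene length, so levels are compared between classes for a gene, and genes are compared only as shares of UMIs within a family. In such sums, fewer cells holding a transcript and less transcript per cell cannot be told apart. RNA set free from other cells can add a low number of UMIs to a class, and it was not measured. TMM factors under 1 raise the levels of a class and factors above 1 lower them. They were 0.588 to 0.660 in neutrophil-like cells, the lowest, and 1.24 to 1.29 in lymphatic endothelial-like cells. The order of classes below the highest can depend on this scaling. The highest class of each transporter was the same with plain totals.

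Slc38a2, the system A carrier that many cells make more of when amino acids run short, was found in every class at 72.3 CPM or more. Its highest level was in lymphatic endothelial-like cells, at 475.5 ± 68.4 CPM (SD, n = 4), with 512.5 and 542.3 CPM in the BPTES libraries and 386.0 and 461.4 CPM in the DMSO libraries. General capillary-like (347.4 ± 49.0 CPM), arterial-like (341.8 ± 34.1 CPM), neutrophil-like (336.8 ± 26.6 CPM) and venous-like cells (327.1 ± 35.5 CPM) followed, with ranges over libraries that overlapped along this order. The place of neutrophil-like cells rests on the scaling, since their TMM factors were 0.588 to 0.660 and those of these endothelial classes were above 1. Aerocyte-like cells, the other capillary type of the alveolus, were lowest of the 21 classes at 72.3 ± 16.7 CPM. The highest class was 6.57-fold above the lowest, the smallest such spread of the 7 transporters for which it could be formed. Of 20 neighbouring pairs in the order of classes, 18 overlapped between libraries.

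Slc38a1, the other widely known system A carrier, divided the lung into cells that had it and cells that did not. All 8 immune classes held between 86.5 and 325.6 CPM. B-like cells were highest at 325.6 ± 16.2 CPM, with 307.2, 343.9, 333.3 and 318.0 CPM in BPTES 1, BPTES 2, DMSO 1 and DMSO 2, and overlapped no other class. Non-classical monocyte-like (184.3 ± 16.6 CPM), neutrophil-like (181.3 ± 24.0 CPM) and classical monocyte-like cells (173.3 ± 33.0 CPM) came next and overlapped one another. Outside the immune classes, ciliated-like cells held 57.6 ± 8.77 CPM and AT1-like cells 22.1 ± 19.1 CPM. The remaining 11 classes, which are all endothelial and mesenchymal classes and AT2-like cells, held between 0.577 and 2.54 CPM, and AT1-like cells did not overlap the first of them. In alveolar fibroblast-like cells, the lowest class, the level was 0.577 ± 0.189 CPM, 564-fold below B-like cells.

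Slc38a5, a system N carrier, was highest in alveolar fibroblast-like cells by a wide margin. Alveolar fibroblast-like cells held 114.8 and 119.1 CPM in the BPTES libraries and 112.3 and 117.4 CPM in the DMSO libraries, a mean of 115.9 ± 2.98 CPM. Adventitial fibroblast-like cells held 21.1 ± 4.01 CPM, 18.2% of that level, and the ranges did not overlap. The other 19 classes held at most 1.37 CPM, and 16 of them held less than 1 CPM. General capillary-like cells, for example, held 0.572 ± 0.0752 CPM from 107 UMIs. Within the adventitial class the level differed between its clusters, with 52.4 ± 6.18 CPM of plain totals in one cluster (649 cells) and 7.62 ± 1.51 CPM in the other (1282 cells).

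Slc38a4, a system A carrier best known from liver and placenta, was highest in AT2-like cells, which make surfactant, at 37.4 ± 6.03 CPM. The AT2-like level was 38.1 and 41.2 CPM in the BPTES libraries and 28.7 and 41.6 CPM in the DMSO libraries and overlapped no other class. Lymphatic endothelial-like cells followed at 11.1 ± 8.23 CPM, peribronchial fibroblast- and myofibroblast-like cells at 10.2 ± 2.86 CPM and AT1-like cells at 6.88 ± 2.54 CPM, and these 3 overlapped. No other endothelial class passed 0.0730 CPM, and venous-like cells held no UMI of the gene. The neighbours on chromosome 15 thus differed in where they were found, with Slc38a1 in immune cells, Slc38a2 in every class and Slc38a4 in AT2-like and a few stromal and lymphatic cells.

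Slc38a3, the system N carrier of liver, brain and kidney, was close to absent, with 305 UMIs over all kept cells of the 4 libraries. What there was lay in the endothelium. Venous-like cells held 1.41 ± 0.354 CPM from 53 UMIs, aerocyte-like cells 1.21 ± 0.550 CPM from 36 UMIs and general capillary-like cells 0.881 ± 0.375 CPM from 159 UMIs, and these ranges overlapped. No class outside the endothelium held more than 4 UMIs, and 7 classes held none.

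Slc1a5, the exchanger that many proliferating cells use for glutamine, was highest in fibroblasts. Alveolar fibroblast-like cells held 139.3, 149.2, 178.6 and 163.4 CPM in BPTES 1, BPTES 2, DMSO 1 and DMSO 2, and adventitial fibroblast-like cells held 133.8 ± 19.9 CPM, which overlapped them. AT2-like cells (110.9 ± 5.52 CPM), B-like cells (83.2 ± 4.23 CPM) and T-like cells (73.2 ± 4.43 CPM) came next. Endothelial classes lay between 16.1 ± 2.58 CPM in venous-like and 1.77 ± 0.880 CPM in aerocyte-like cells, the lowest class, 89.0-fold below alveolar fibroblast-like cells. Fibroblast-type cells were not alike, since peribronchial fibroblast- and myofibroblast-like cells held 3.50 ± 1.01 CPM, and their libraries did not overlap those of the other fibroblast classes.

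Slc3a2, the heavy chain shared by the Slc7 light chains, was present in every class at 54.4 CPM or more. Venous-like cells were highest at 395.7 ± 21.7 CPM, with 382.2 and 427.4 CPM in the BPTES libraries and 391.7 and 381.5 CPM in the DMSO libraries. Arterial-like cells (348.9 ± 28.9 CPM) and general capillary-like cells (336.1 ± 24.7 CPM) followed, and general capillary-like cells did not overlap the next class, interstitial macrophage-like cells at 215.1 ± 14.1 CPM. Pericyte-like cells were lowest at 54.4 ± 8.56 CPM, a 7.27-fold difference. Set against the light chains, the ratio of UMIs is read between classes only, since genes differ in how well their 3′ ends are captured. General capillary-like cells held 20.04 ± 2.35 UMIs of Slc3a2 for each UMI of Slc7a5, Slc7a6 and Slc7a8 together, and the other blood endothelial classes held as many or more. Peribronchial fibroblast- and myofibroblast-like cells held 1.12 ± 0.131, the lowest such ratio. Slc7a7, Slc7a10 and Slc7a11 were not counted in this ratio, so the order of classes holds only for the light chains named.

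Slc7a6, which exchanges glutamine with basic amino acids, was highest in fibroblasts and ciliated cells. Alveolar fibroblast-like cells held 94.0 ± 14.4 CPM, adventitial fibroblast-like cells 82.9 ± 8.92 CPM, peribronchial fibroblast- and myofibroblast-like cells 60.8 ± 11.9 CPM and ciliated-like cells 52.5 ± 5.22 CPM. Ciliated-like cells did not overlap the next class, smooth muscle-like cells at 28.1 ± 7.77 CPM. Aerocyte-like cells were lowest at 1.10 ± 0.668 CPM, and no overlap was seen with the class before them.

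Slc7a8, an exchanger of most neutral amino acids, was highest in mononuclear phagocytes among the 21 classes. A cluster of 114 cells, too small for this order, held more, at 372.5 ± 96.5 CPM. Interstitial macrophage-like cells held 62.8 and 84.5 CPM in the BPTES libraries and 115.4 and 71.1 CPM in the DMSO libraries, a mean of 83.4 ± 23.1 CPM that overlapped no other class. Alveolar macrophage-like cells (18.1 ± 7.58 CPM), classical monocyte-like cells (13.5 ± 4.45 CPM), non-classical monocyte-like cells (8.55 ± 1.27 CPM) and neutrophil-like cells (6.198 ± 1.58 CPM) followed. In 14 of the 21 classes the level was below 1 CPM.

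Slc7a5, the large neutral amino acid carrier that activated lymphocytes and tumour cells raise, was low in all 21 classes. T-like cells held 23.6 ± 2.21 CPM and alveolar macrophage-like cells 20.8 ± 4.84 CPM, and these overlapped. The gene reached 10 CPM in 11 classes, and of 20 neighbouring pairs 19 overlapped between libraries. Ciliated-like cells were lowest at 1.40 ± 0.577 CPM.

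**Figure D2:**
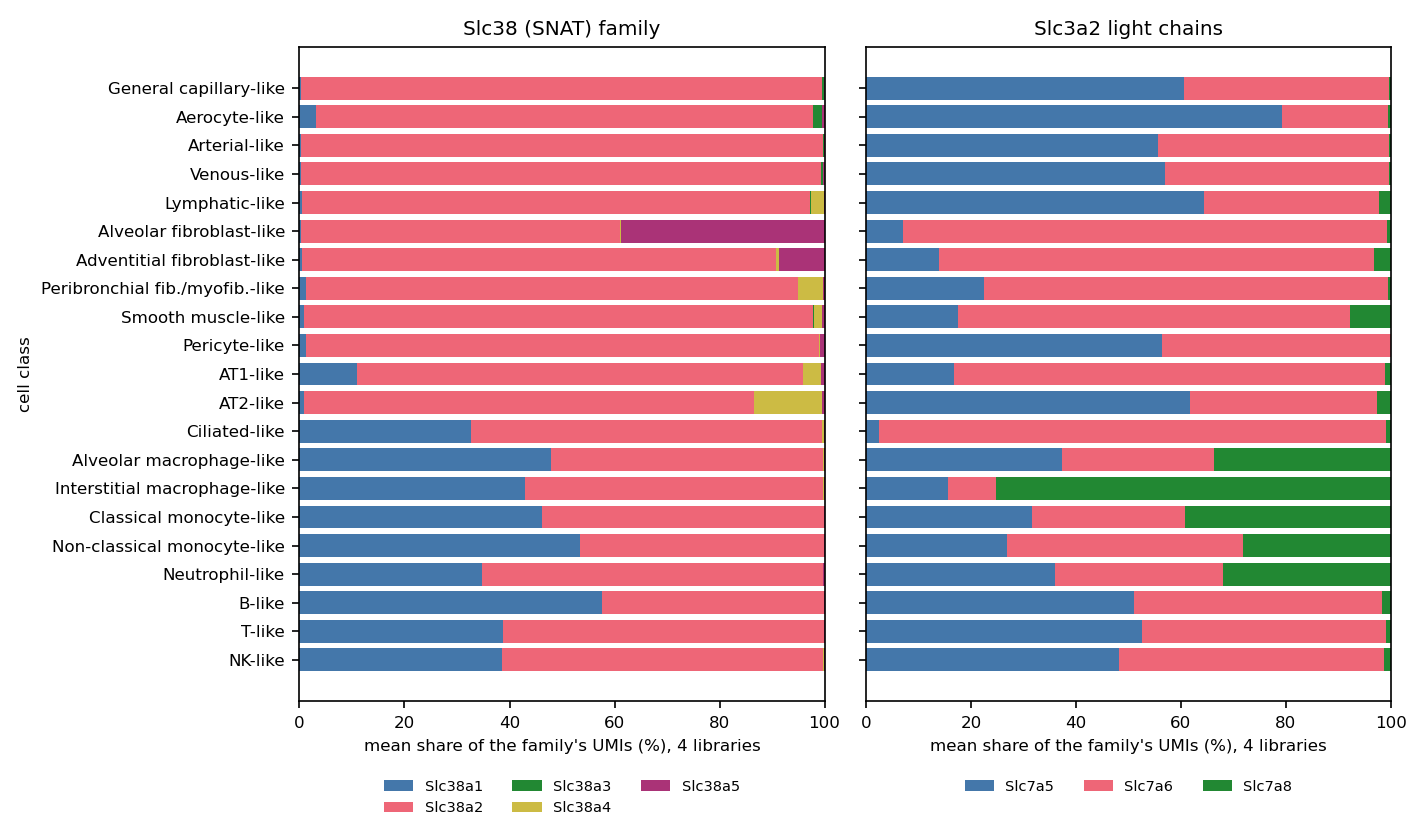
Mean share of each gene in the summed UMIs of the genes of its panel, in percent over 4 libraries, for 21 cell classes (rows). Other Slc38 and Slc7 genes were left out. The left panel shows Slc38a1 to Slc38a5. There Slc38a2 leads by mean share in every row but the B-like and non-classical monocyte-like rows, which Slc38a1 leads. In the other immune rows Slc38a1 takes most of the rest. The right panel shows the light chains Slc7a5, Slc7a6 and Slc7a8. There Slc7a6 takes most in fibroblast, ciliated, AT1 and smooth muscle rows and Slc7a8 in interstitial macrophage-like cells.

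Among Slc38a1 to Slc38a5, Slc38a2 gave the largest mean share of UMIs in 19 of 21 classes. In 2 of these, alveolar macrophage-like and classical monocyte-like cells, it overlapped Slc38a1 between libraries. In arterial-like cells Slc38a2 gave 99.5 ± 0.0799% of the UMIs of these genes. Other Slc38 genes were left out of the shares, among them Slc38a6, which reached 10 CPM in 21 classes. Slc38a1 led in B-like cells with 57.5 ± 1.69% and in non-classical monocyte-like cells with 53.4 ± 2.78%. Alveolar fibroblast-like cells divided theirs between Slc38a2 (60.9 ± 1.74%) and Slc38a5 (38.8 ± 1.66%), and AT2-like cells gave 12.97 ± 1.49% to Slc38a4. These shares come from UMIs of the same cells, so depth and scaling cancel, while differences between genes in how well the 3′ end is captured do not.

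Light chain shares were taken over Slc7a5, Slc7a6 and Slc7a8 only, and other Slc7 genes, such as Slc7a7, Slc7a10 and Slc7a11, were left out. Of these 3 light chains, Slc7a5 had the largest mean share in 11 classes, Slc7a6 in 8 and Slc7a8 in 2. The leader overlapped the next gene between libraries in 5, 1 and 1 of these: pericyte-, venous-, B-, neutrophil- and alveolar macrophage-like cells for Slc7a5, NK-like cells for Slc7a6 and classical monocyte-like cells for Slc7a8. Slc7a6 gave 96.6 ± 0.585% in ciliated-like cells and 92.1 ± 1.01% in alveolar fibroblast-like cells. It also gave 82.2 ± 11.1% in AT1-like cells, from 83 UMIs of all 3 genes, and 74.8 ± 1.69% in smooth muscle-like cells. Slc7a8 gave 75.3 ± 2.92% in interstitial macrophage-like cells. In classical monocyte-like cells Slc7a8 led with 39.2 ± 12.3%, but Slc7a5 with 31.6 ± 6.49% and Slc7a6 with 29.2 ± 8.12% overlapped it between libraries. Aerocyte-like cells gave 79.2 ± 7.5002% to Slc7a5, from 150 UMIs of all 3 genes.

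The share of cells with at least 1 UMI was taken after each cell had been thinned to 3000 UMIs, since classes differ in depth. Slc38a5 was then found in 29.5 ± 0.270% of alveolar fibroblast-like cells (82.8% unthinned) and in 0.151 ± 0.0912% of general capillary-like cells (0.767% unthinned), a class given for comparison; free RNA was not measured. Median depths were 19836.0 to 22472.5 UMIs in the former and 12010.0 to 13188.0 in the latter, and thinning left out shallower cells, 42 with BPTES and 59 with DMSO in the former and 264 and 490 in the latter. Slc38a1 was found in 55.9 ± 1.75% of thinned B-like cells (84.8% unthinned) and in 0.326 ± 0.0864% of general capillary-like cells (1.05% unthinned). Slc7a8 was found in 15.3 ± 3.29% of interstitial macrophage-like cells (63.8% unthinned) and in no pericyte-like cell, thinned or not. Slc38a4 was found in 8.98 ± 1.74% of AT2-like cells (54.5% unthinned, at a median depth of 43069.5 UMIs or more) and in 3.18 ± 2.15% of lymphatic endothelial-like cells (8.29% unthinned).

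Named classes were joined into 4 compartments, and each was tested against the mean of the log2 levels of the other 3 with edgeR's quasi-likelihood test over all 19684 genes tested, with the library as a block. Slc38a5 and Slc7a6 were higher in mesenchymal cells, Slc38a1 and Slc7a8 in immune cells, Slc38a4 in epithelial cells and Slc3a2 and Slc38a2 in the endothelium. A mean of logs lies low where 1 of the other compartments is near 0, so a compartment can be called higher and still hold less than another. Of the 40 pairs of transporter and compartment, 13 were called higher and 19 lower at an adjusted p under 0.05. Most genes differ between such compartments, and the counts are read against that background. Higher in the endothelium were 3 of 10 transporters (37.9% of all genes), and 5 were lower (39.4%). In the mesenchymal compartment 3 were higher (40.3%) and 4 lower (39.5%), in the epithelial compartment 3 were higher (34.3%) and 5 lower (44.4%), and in the immune compartment 4 were higher (41.6%) and 5 lower (43.0%). The shares of transporters called are near those of genes at large, so the counts are no result about the transporters, and the ratios below are given for their size.

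**Figure D3:**
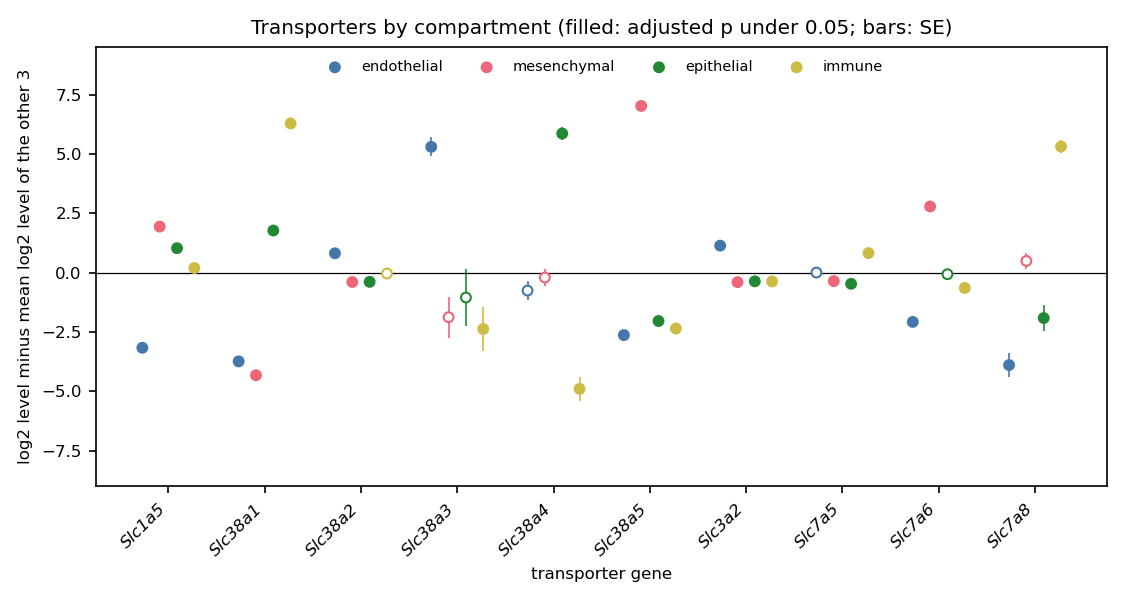
Log2 level of each transporter in a compartment minus the mean log2 level of the other 3 (points, with standard errors as bars; filled where the adjusted p is under 0.05). Slc38a5 stands at 7.02 in the mesenchymal compartment, Slc38a1 at 6.28 in the immune compartment, Slc38a4 at 5.86 in the epithelial compartment and Slc38a3 at 5.30 in the endothelial compartment.

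Mesenchymal cells held more Slc38a5, at 92.4 ± 3.45 CPM of plain totals against 0.620 ± 0.0516 in the endothelium, a log2 ratio of 7.02 ± 0.0846 (SE) to the other compartments (edgeR adjusted p = 3.62e-16). They also held more Slc7a6 (log2 ratio 2.79 ± 0.0554) and Slc1a5 (1.94 ± 0.0742). Immune cells held more Slc38a1, at a log2 ratio of 6.28 ± 0.0893 (edgeR adjusted p = 1.01e-15), more Slc7a8 (5.31 ± 0.266) and more Slc7a5 (0.82 ± 0.0897). For Slc1a5 the immune ratio of 0.19 was called (edgeR adjusted p = 0.0365), although immune cells at 48.8 CPM held less than mesenchymal (145.6 CPM) and epithelial cells (81.9 CPM) and more only than the endothelium (10.3 CPM). This call was lost with 6 of 13 alternatives, among them DESeq2's size factors (edgeR adjusted p = 0.0645).

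The endothelium held more Slc3a2, at 356.9 ± 20.5 CPM and a log2 ratio of 1.14 ± 0.0489 (edgeR adjusted p = 8.58e-11), and more Slc38a2 (0.81 ± 0.0674). Its ratio for Slc38a3 was 5.30 ± 0.405 at a level of 0.998 ± 0.332 CPM. It held less Slc1a5 (log2 ratio -3.16 ± 0.0999), Slc38a1 (-3.74), Slc7a8 (-3.89), Slc38a5 (-2.63) and Slc7a6 (-2.08). Epithelial cells held more Slc38a4 than any other compartment, at 21.03 ± 2.77 CPM and a log2 ratio of 5.86 ± 0.282 (edgeR adjusted p = 2.19e-10). Their ratios for Slc38a1 (1.77 ± 0.104) and Slc1a5 (1.03 ± 0.0788) were above the mean of logs only: Slc38a1 stood at 17.7 CPM against 172.2 CPM in immune cells, and Slc1a5 at 81.9 CPM against 145.6 CPM in mesenchymal cells. Among the epithelial classes in the order of levels, ciliated-like and AT1-like cells were those with Slc38a1. The AT1-like level rests on 113 UMIs and ran from 5.31 CPM in DMSO 1 to 48.8 CPM in BPTES 1. The 63 secretory airway-like cells, too few for that order, held 40.7 ± 39.9 CPM from 28 UMIs.

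Classes too small for the order of levels held some of the highest values. Their cells were part of the compartments, apart from mesothelial-like and megakaryocyte- and platelet-like cells. Cluster 35, with 114 cells, scored highest for type 2 innate lymphoid markers and nearly as high for mast cell and basophil markers, and Il1rl1, Il4 and Fcer1a were among its leading genes. It held 372.5 ± 96.5 CPM of Slc7a8 and 391.4 ± 45.05 CPM of Slc38a1. Plasma-like cells, 87 in all, held 607.9 ± 153.4 CPM of Slc3a2 and 63.2 ± 21.1 CPM of Slc7a5, both above every class in the order given before. Mesothelial-like cells numbered 7, 22, 227 and 72 in BPTES 1, BPTES 2, DMSO 1 and DMSO 2. They entered no comparison by class or compartment, but were part of the sums over all kept cells. Among unnamed clusters, cluster 18 (998 cells), which scored highest for T-cell markers, held 560.7 ± 14.4 CPM of Slc38a1 as a share of plain totals, and Il23r, Cd163l1 and Il17a were among its leading genes. The B-like class held 2 clusters, at 318.1 ± 16.04 CPM (3713 cells) and, in a shallow cluster with a median of 2312.0 UMIs per cell, 496.5 ± 65.3 CPM (631 cells).

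For each transporter, the genes with the most similar pattern were taken as the 3 with the highest Pearson correlation of log2(CPM + 1) over the 21 class means, among 10133 genes with a mean of at least 10 CPM. Slc38a5 was closest to C7 (r = 0.973), Cdh11 (r = 0.965) and the amino acid transporter gene Slc36a2 (r = 0.963), all highest in alveolar fibroblast-like cells. Slc38a1 was closest to Cytip (r = 0.963), Kcnab2 (r = 0.954) and Ptpn6 (r = 0.948). Slc7a8 was closest to Trem2 (r = 0.935), Slamf9 (r = 0.932) and Aif1 (r = 0.907), all highest in interstitial macrophage-like cells. Slc38a4 was closest to Gja1 (r = 0.913), Lgi3 (r = 0.853) and Tceal9 (r = 0.851), and Slc38a3, at its low level, to Gm20532 (r = 0.936), Reep1 (r = 0.928) and Myct1 (r = 0.926). Slc1a5 was closest to Zfp809 (r = 0.877), Bcat2 (r = 0.712) and Zdhhc21 (r = 0.698). Slc7a6 was closest to Fgf7 (r = 0.830), Gsn (r = 0.821) and Hs6st3 (r = 0.815). Less marked were the closest genes of Slc7a5 (Atad2, Syncrip and Ctdp1, r = 0.818 to 0.780), Slc3a2 (Pim3, Sptlc2 and Aph1a, r = 0.818 to 0.783) and Slc38a2 (Sft2d2, Erbin and Nup155, r = 0.746 to 0.717). The class means come from the same 4 libraries, and the correlations are descriptions only.

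The treatment was compared next, which asks whether cells given a glutaminase inhibitor carried other amounts of the carriers' RNA. Of 190 pairs of transporter and class, 128 passed edgeR's filter on low counts and were tested. 1 pair was called at an adjusted p under 0.05: Slc38a4 was lower with BPTES in lymphatic endothelial-like cells. Over the 19 class fits together, 0.0875% of gene and class pairs were called, and 0.461% of genes in the lymphatic class. At an unadjusted p under 0.05 stood 25 of the 128 pairs (19.5%), 13 of them higher and 12 lower with BPTES, against 12.5% of all pairs tested. The median log2 ratio over the 128 pairs was -0.01, and over all genes it was -0.00268.

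**Figure D4:**
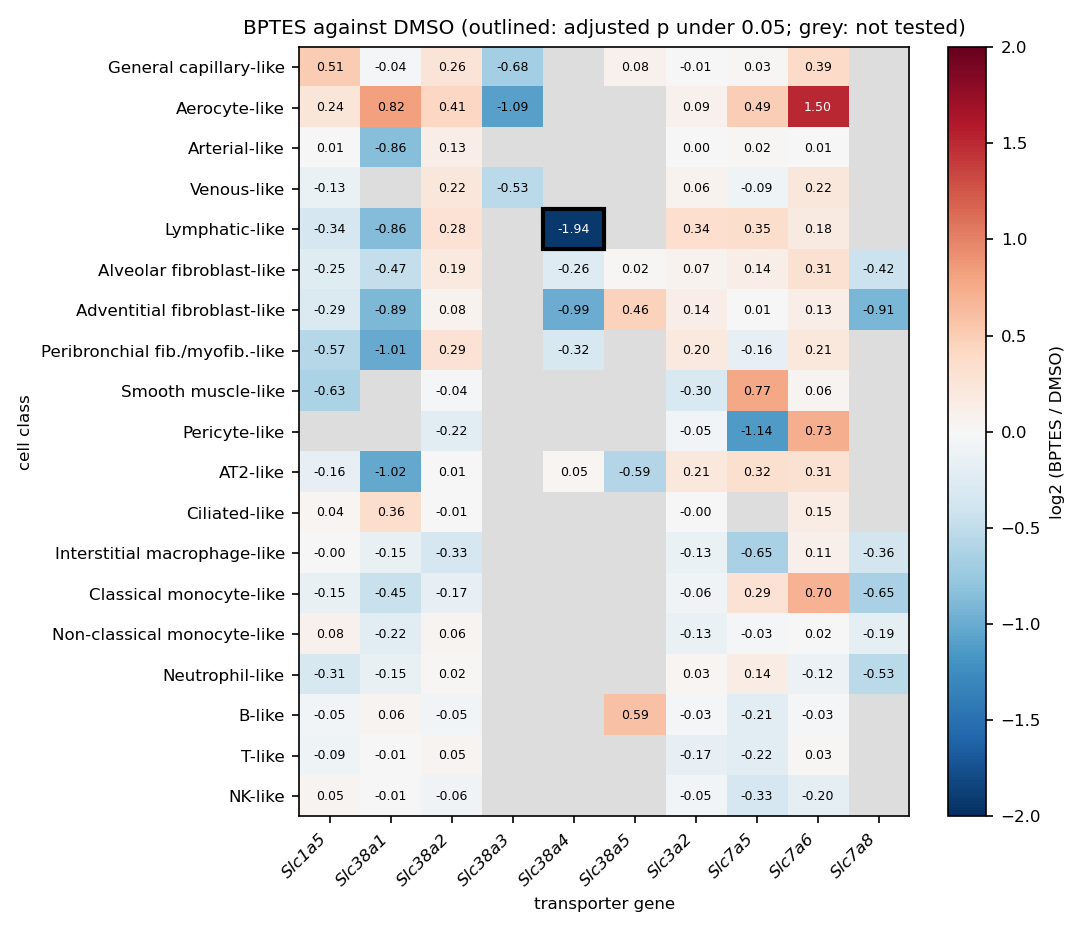
Log2 ratio of BPTES to DMSO for each transporter (columns) in 19 cell classes (rows), from the edgeR fit of 2 libraries against 2 in each class. Grey fields did not pass the filter on low counts and the outlined field is the 1 pair with an adjusted p under 0.05, Slc38a4 in lymphatic endothelial-like cells at -1.94.

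In lymphatic endothelial-like cells, Slc38a4 stood at 6.36 and 5.38 CPM in the BPTES libraries and 28.1 and 17.3 CPM in the DMSO libraries, on the scale of that class's fit. Both BPTES libraries lay below both DMSO libraries. Means were 5.87 ± 0.693 and 22.7 ± 7.66 CPM (SD, n = 2 each), a log2 ratio of -1.94 ± 0.287 (SE; edgeR adjusted p = 0.0157). The counts behind these values were 33 and 19 UMIs with BPTES and 118 and 65 UMIs with DMSO, from 435, 287, 343 and 340 cells. UMIs of the gene were found in 23 and 12 cells with BPTES and in 44 and 37 cells with DMSO, and the richest cell held 14 UMIs. After thinning, 1.51 ± 1.61% of cells with BPTES and 4.86 ± 0.286% with DMSO held a UMI, with p = 0.333 by a two-sided exact permutation test, the smallest p that 2 libraries against 2 allow.

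The call held in all 17 alternatives run, with log2 ratios from -2.23 to -1.53. The smallest ratio came without DMSO replicate 1, the highest library (adjusted p = 0.0450, edgeR), and without the 2 richest cells of each library the ratio was -2.08. AT2-like cells hold more of the gene, and all 9 AT2 markers summed to 532.8 and 395.8 CPM in the BPTES and 245.7 and 408.5 CPM in the DMSO lymphatic sums, with 8 or 9 of 9 markers above 0. The summed markers of peribronchial fibroblasts and myofibroblasts were 64.5 and 73.9 CPM with BPTES and 72.9 and 67.7 CPM with DMSO. Neither of these sums was higher in both DMSO libraries. The lymphatic markers themselves summed to 32102 and 31806 CPM with BPTES and 33276 and 35001 CPM with DMSO. Of all 34 marker lists, 13 summed higher in both DMSO libraries, the lymphatic, arterial, pericyte and neutrophil lists among them, and 3 summed lower in both. Their part in the result was not tested. In AT2-like cells the log2 ratio of Slc38a4 was 0.05, and the difference of its treatment effect between classes was not called (edgeR adjusted p = 0.192).

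**Figure D5:**
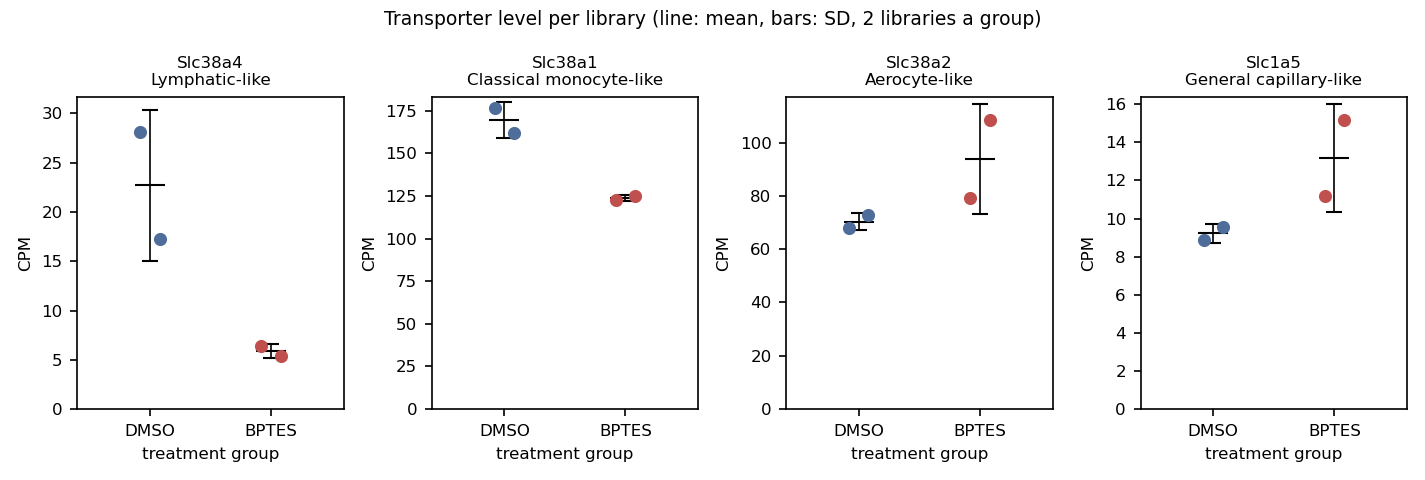
Level per library (points, CPM on the scale of each class's fit), with the mean (line) and SD (bars) of 2 libraries a group, for the 1 called pair and the 3 pairs called under 3 or more alternatives. In all 4 panels both BPTES libraries lie on one side of both DMSO libraries. The panels were chosen by their calls, so this separation is no further result.

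A further 6 pairs missed the threshold but were called under at least 1 alternative, and 3 of them under 3 or more. Slc38a1 in classical monocyte-like cells stood at 122.6 and 124.9 CPM with BPTES and 177 and 162.0 CPM with DMSO, a log2 ratio of -0.45 ± 0.0763 (SE; edgeR adjusted p = 0.0796). It was called by the DESeq2 Wald test, and by edgeR without the filter on low counts, without DMSO replicate 2 and with crossed replicate numbers as a block. Slc38a2 in aerocyte-like cells, the class with the least of it, stood at 79.4 and 108.5 CPM with BPTES and 68.0 and 72.7 CPM with DMSO, a log2 ratio of 0.41 ± 0.132 (SE; edgeR adjusted p = 0.279). Slc1a5 in general capillary-like cells stood at 11.2 and 15.2 CPM with BPTES and 8.86 and 9.57 CPM with DMSO, a log2 ratio of 0.51 ± 0.160 (SE; edgeR adjusted p = 0.162). In both endothelial pairs BPTES replicate 2 was the highest library, and both were called without the filter, with the replicate number as a block and without BPTES replicate 1. The other 3 pairs were Slc7a6 and Slc7a8 in classical monocyte-like cells (log2 ratios 0.70 and -0.65) and Slc38a2 in general capillary-like cells (0.26). Shares of all genes called under the alternatives are not given here, so the number of such pairs is no result about the transporters. The general capillary-like class joined a larger cluster, with 2187 and 1443 cells with BPTES and 2218 and 3077 with DMSO, and a smaller one. The smaller cluster had 1181 and 1466 cells with BPTES and 651 and 1463 with DMSO. The part of this mixture in the Slc1a5 and Slc38a2 values of the class was not tested.

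Gene by gene, no other transporter passed the test in any class. Slc38a2 lay above DMSO in 12 of 19 classes (median log2 ratio 0.05) and Slc38a1 below it in 13 of 16 (median -0.19). Classes with lower Slc38a1 included AT2-like, general capillary-like, arterial-like, lymphatic endothelial-like and the fibroblast classes, all at 0.577 to 2.54 CPM. RNA set free from other cells can also add UMIs at such levels, and whether it did was not measured. Slc1a5 lay below DMSO in 12 of 18 (median -0.11). Signs turned under some alternative in 6 of the 19 classes for Slc38a2, 7 of the 16 for Slc38a1 and 8 of the 18 for Slc1a5. Slc38a3 lay below DMSO in all 3 classes tested and Slc7a8 in all 6, with log2 ratios of -0.19 to -0.91 for Slc7a8 and a smallest adjusted p of 0.259 (edgeR). Over all kept cells the Slc7a8 ratio was 0.21, the other way, and its sign turned under some alternative in 4 of the 6 classes. Slc7a6 lay above DMSO in 16 of 19 classes, with a median of 0.15, and its sign turned under some alternative in 13 of the 19. Slc7a5 and Slc3a2 were divided evenly, 10 of 18 and 9 of 19 classes above DMSO. The classes of a library share its preparation, so these counts are not independent. Of the 128 pairs, 60 changed sign under at least 1 alternative.

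Slc38a5 in alveolar fibroblast-like cells, its main site, had a log2 ratio of 0.02, and Slc38a1 in B-like cells one of 0.06. In the larger and the smaller cluster of the alveolar fibroblast-like class, Slc7a6 stood at 78.6 ± 5.81 and 130.3 ± 13.5 CPM of plain totals and Slc1a5 at 175.1 ± 17.0 and 130.2 ± 18.9 CPM. Slc38a5 was alike in both (120.6 ± 4.43 and 113.5 ± 5.70 CPM). The larger cluster had 1736 and 1765 cells with BPTES and 2254 and 2423 cells with DMSO, and the smaller one 812 and 1009 cells with BPTES and 566 and 730 cells with DMSO. In the class as a whole Slc7a6 had a log2 ratio of 0.31 and Slc1a5 one of -0.25 (edgeR adjusted p = 0.158 and 0.148). The part of this mixture in them was not tested.

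Summed over all kept cells, 10 of 10 transporters were tested and none was called by edgeR (0.0% of all 21463 genes were). At an unadjusted p under 0.05 stood 3 (17.4% of genes). DESeq2 called 1, Slc38a1, and the share of all genes that it called is not given here. Slc38a1 was at 60.1 and 59.7 CPM with BPTES and 71.5 and 68.6 CPM with DMSO, a log2 ratio of -0.22 ± 0.0520 (SE; edgeR adjusted p = 0.207). B-like cells held 17415 of the 69038 UMIs of Slc38a1 in kept cells. They made up 4.72% and 4.04% of the BPTES and 9.66% and 8.55% of the DMSO libraries. Slc38a4 was at 2.35 and 2.59 CPM with BPTES and 1.94 and 1.71 CPM with DMSO, the other way from the lymphatic class, and AT2-like cells made up 2.64% and 2.67% of the BPTES and 0.882% and 1.304% of the DMSO libraries. What these shares of cells contribute was not tested.

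Whether the effect of BPTES differed between the 19 classes was tested in 1 edgeR fit over all sums. None of the 10 transporters was called, with 4.59% of genes called in all, and 4 of the 10 had an unadjusted p under 0.05 against 19.5% of genes. Slc7a5 was closest (edgeR adjusted p = 0.0761), with log2 ratios from -1.14 in pericyte-like to 0.77 in smooth muscle-like cells. These extremes rest on 66 and 56 UMIs over the 4 libraries. Slc7a5 was called with 6 of the 7 other ways of clustering or filtering cells, at adjusted p-values of 0.0139 to 0.0485 (edgeR). These were its only calls among 13 alternatives, and it was not called with any 1 library left out.

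Other amino acid transporters, glutamine and glutamate enzymes and genes of the amino acid response through ATF4 were read in the same 19 classes. Of 26 other transporters found, 25 reached 10 CPM in some class, led by Slc7a11, the cystine carrier, at 2505 ± 414.5 CPM in neutrophil-like cells, and 1 of 314 tested pairs was called, lower with BPTES. This was Slc1a2, a glutamate carrier, in alveolar fibroblast-like cells (0.305% of genes called), at 28.8 and 30.3 CPM with BPTES and 49.8 and 43.5 CPM with DMSO. Its log2 ratio was -0.66 ± 0.0849 (SE; edgeR adjusted p = 0.0431), and the call was lost without DMSO replicate 1 (-0.55; edgeR adjusted p = 0.207), with the replicate number as a block, at resolution 0.5 and with doublets kept. The mixture of clusters in the alveolar fibroblast-like class, described above, differed between the groups. Its part in the Slc1a2 value was not tested. The median log2 ratio of the other transporters was -0.02 against -0.00268 for all genes.

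None of 154 tested pairs of the 10 glutamine and glutamate enzymes was called, and their median log2 ratio was 0.03. Of 332 pairs of the 20 ATF4 response genes, 1 was called: Cebpg, a partner of ATF4 in DNA binding, was higher with BPTES in classical monocyte-like cells (0.0985% of genes called), with 89.0 and 99.2 CPM against 49.8 and 54.9 CPM. Its log2 ratio was 0.85 ± 0.0907 (SE; edgeR adjusted p = 0.0497), and the call was lost with doublets kept (edgeR adjusted p = 0.110) and with the replicate number as a block (0.0510). The median over this list was 0.07.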

How the data were processed

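UMI counts were deposited by the authors as 1 filtered matrix per library, made with Cell Ranger 8.0.1 on mm10 per the submitters' processing notes. Whether intronic reads were counted is not given in the sources used here. The 10 members, picked by symbol, and the gene lists were chosen with earlier results of these data known.

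Cells under 500 genes, under 1000 UMIs or above 10% mitochondrial UMIs were dropped, and doublet scores from simulated doublets removed 0.4% per 1000 barcodes. The 10 transporters were left out of the 2000 variable genes, and cells were clustered on 40 principal components with 15 neighbours (Leiden, igraph 0.11.9, resolution 1). Clusters were named from lists of 9 markers. Summed counts per class and library were tested with edgeR 4.0.16 (TMM, filterByExpr, quasi-likelihood) in R 4.3.3, with Benjamini-Hochberg adjustment over all genes tested. DESeq2 1.42.0, other size factors, no filter, left-out libraries, other clusterings, doublets kept and at most 5% mitochondrial UMIs were alternatives. Genes outside the 10 were named where a list's member was called in a class, or as the 3 most similar in pattern. The fit was tested on simulated data: in the lymphatic class it recovered 81.5% of 200 genes changed by 1 on the log2 scale, with 8 false calls. The simulation gave all genes 1 fixed spread and changed only genes with at least 200 UMIs in the class. It does not show how genes with fewer UMIs or a wider spread are recovered. Sums and figures were made in Python 3.11.15 (pandas 2.3.3, matplotlib 3.10.9).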

Additional observations from a re-analysis of the deposited data

Results flagged for a closer look

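Among the genes of the lists read beside the 10 transporters, the effect of BPTES differed between the 19 classes for Cebpg and Slc16a10, 2 of 54 list genes tested (3.7%), while 4.59% of all genes were called. The share is thus no result about these lists. For Cebpg, a partner of ATF4 in DNA binding, the adjusted p of the difference between classes was 0.0297 (edgeR), and it was lost without BPTES replicate 1, without BPTES replicate 2 and without DMSO replicate 1 (adjusted p = 0.426, 0.717 and 0.145, edgeR). Its log2 ratio of BPTES to DMSO was 0.85 in classical monocyte-like cells and 0.09 in alveolar fibroblast-like cells.

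For Slc16a10, a carrier of aromatic amino acids, the adjusted p was 0.0158 (edgeR), and it was lost without BPTES replicate 2, without DMSO replicate 1 and without DMSO replicate 2 (adjusted p = 0.0799, 0.517 and 0.188, edgeR). In alveolar fibroblast-like cells Slc16a10 stood at 219 and 176 CPM with BPTES and 320.1 and 322 CPM with DMSO, a log2 ratio of -0.70 (edgeR adjusted p = 0.0657). In classical monocyte-like cells its log2 ratio was 0.11. Over the classes tested it ran from -1.12 in AT2-like to 0.43 in interstitial macrophage-like cells (edgeR adjusted p = 0.167 and 0.151). The AT2-like value rests on 45 and 51 UMIs with BPTES and 43 and 45 UMIs with DMSO. In peribronchial fibroblast- and myofibroblast-like cells it was -0.93 (edgeR adjusted p = 0.102).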

How the results depend on the processing

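Shares of all genes called are given for the main fits only. Counts of called transporters under other settings therefore have no background beside them and are no result about the transporters. In the 19 classes, the count of called transporters was 1 in the main fit. It was 7 without the filter on low counts, 2 with the DESeq2 Wald test, which gave no adjusted p for 19 pairs, and 1 to 3 with 1 library left out. Leaving out BPTES replicate 1 gave 3 calls and DMSO replicate 2 gave 2. Over all kept cells the count was 0, 0 to 0 with 1 library left out, and 1 with DESeq2. By compartment it was 32, and 29 to 32 with 1 library left out. The difference between classes gave 0 calls, and 1 each with resolution 2, other seeds (1 and 2), the transporters kept among the variable genes and doublets kept, and 2 with at most 5% mitochondrial UMIs. The top class by share of cells with a UMI was the same without thinning for 5 of the 10 genes. No called result changed its sign, while 60 of the 128 transporter and class pairs, none of them called in the main fit, did under at least 1 alternative. The cause of these changes was not tested. TMM and DESeq2 size factors moved the median of all genes by at most 0.008267 on the log2 scale in any class.

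The replicate numbers were not shown to pair the samples: same-numbered libraries had correlations of their deviations from the group means of -0.25 to 0.35 over classes and -0.30 over all kept cells. With the replicate number as a block, 3 transporter and class pairs were called. With the numbers crossed, a block added after seeing the data, 3 were called. Shares of all genes called in these fits are not given here, so these counts are no result about the transporters. With 2 libraries a group, only counts of calls and large ratios can be read, and genes near 1 CPM rest on few UMIs.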

Other observations

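Unnamed clusters also differed in their transporters, given here in CPM of plain totals (mean ± SD, 4 libraries). Cluster 19, with 966 cells and Ccl22, Cd209a, Xcr1 and Flt3 among its leading genes, held 227.0 ± 31.8 CPM of Slc38a1 and 8.77 ± 0.844 CPM of Slc7a8. Clusters 6 and 22 scored highest for alveolar fibroblast markers but had medians of 3288.0 and 3381.0 UMIs per cell. Slc38a5 was at 127.1 ± 12.2 CPM in cluster 6 and 18.9 ± 4.72 CPM in cluster 22, while Slc7a6 was at 13.2 ± 3.71 CPM in cluster 6 and 137.4 ± 27.5 CPM in cluster 22.

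Other amino acid carriers differed in breadth, from Slc38a6, which reached 10 CPM in 21 classes, to Slc7a10 and Slc6a20a, which did so in 1 each. Slc7a10, an exchanger of small neutral amino acids, was highest in alveolar fibroblast-like cells at 234.8 ± 38.3 CPM. Slc6a14 reached 10 CPM in 3 classes and was highest in AT1-like cells at 209.4 ± 37.0 CPM, and Slc6a20a, a proline carrier, in AT2-like cells at 97.4 ± 21.5 CPM.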
